A study of Mus musculus with 12 samples.

Results

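The 34 genes described here encode the enzymes that oxidise fatty acids in mitochondria and peroxisomes, with the PPAR (peroxisome proliferator-activated receptor) regulators of those enzymes. They were taken by name from a list among the 23284 genes quantified, all 34 were found, and 33 had an FPKM (fragments per kilobase of transcript, scaled to the library's mapped fragments) of at least 1 in at least 3 libraries. Gut ILC3s (group 3 innate lymphoid cells, lymphocytes without antigen receptors that produce IL-17 and IL-22) were sorted from the small intestine of HR-1 hairless mice, labelled as 18 weeks of age, by a gate on cells that lacked lineage markers and carried Nrp1, CD25, CD4 and Thy1. PA milk mice were offspring suckled by dams on chow rich in palmitic acid, a long-chain saturated fatty acid, and the dams of ND mice received the normal diet. The authors describe PA pups as born to normal-diet dams and swapped after birth, and give no such swap for ND pups. Swap and milk therefore cannot be told apart. From weaning the offspring ate the normal diet, so the milk was an early exposure. The authors report that PA milk offspring later developed eczema. The intraepithelial layer (IEL), whose cells were released from the epithelium with EDTA and DTT, and the lamina propria (LP), digested afterwards with collagenase, gave 3 libraries per diet and layer, 12 in all. The labels name no transgene or engineered deletion, and the hairless strain was common to all groups. The labels call the libraries separate samples but do not say whether a library held 1 mouse or a pool, so p-values measure only the spread between these samples.

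Long-chain fatty acids enter mitochondria as carnitine esters and are then shortened by a repeating cycle of dehydrogenation, hydration, a second dehydrogenation and thiolysis, whose electrons pass through the electron transfer flavoprotein to the respiratory chain. Peroxisomes run a parallel cycle on very long and branched chains. Fatty acids are ligands of the PPAR receptors, which bind DNA as partners of the retinoid X receptors and activate many of these enzymes, and in the intestine the pathway is best known from absorptive epithelial cells.

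The libraries held 8.75 to 14.6 M (mega) reads, worked out from the step between low values, with scaled count totals of 9376529 to 11710874. PA IEL replicate 2 and PA LP replicate 2 stood apart, with 4390 and 5637 genes at an FPKM of at least 1 against 7863 to 11378 in the other 10 libraries, and PA IEL replicate 2 had the most reads of all. Of 16 genes that every cell uses, 1 was listed at 0 in any library. This was Polr2a, a subunit of RNA polymerase II, at 0 in PA IEL replicate 2 and PA LP replicate 1. It was low elsewhere too, at 3.82 FPKM or below outside PA LP replicate 2. Tbp, the TATA-binding protein, was at 0.056 in PA LP replicate 2. The rest of these genes were at 40.6 FPKM or above in all 12 libraries. A value of 0 therefore cannot be read as absence of the transcript, and values are given for each library below. The label of the cells was only partly borne out by their markers. Thy1 of the sorting gate was listed at 0 in 5 of the 12 libraries, and Il7r, the receptor chain for IL-7 that innate lymphoid cells carry, was at 0.03 FPKM or below in 3 (PA IEL replicate 2, PA LP replicate 2 and ND LP replicate 1) and at 10.6 to 167 in the other 9. In such bulk samples, fewer cells of a type and less RNA per cell cannot be told apart.

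Read over the whole list, the enzymes were detected in all 4 groups, and they read higher in IEL than in LP. The summed FPKM of the 34 genes was 1748.7, 2766.0 and 5525.4 in PA IEL, 3356.3, 4309.1 and 3477.9 in ND IEL, 1802.2, 2288.1 and 1195.8 in PA LP, with 1321.5, 1898.8 and 2050.1 in ND LP (replicates 1 to 3 in this order, here and below). All 3 ND IEL libraries and PA IEL replicates 2 and 3 lay above every LP library, and PA IEL replicate 1 lay within the LP range. The genes of mitochondrial oxidation made up most of this sum, from 72.0% of it in PA IEL replicate 2 to 87.2% in PA IEL replicate 1. PA IEL replicate 2 and PA LP replicate 2 each had 11 of the 34 genes listed at 0, so their sums rested on fewer genes.

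**Figure D1:**
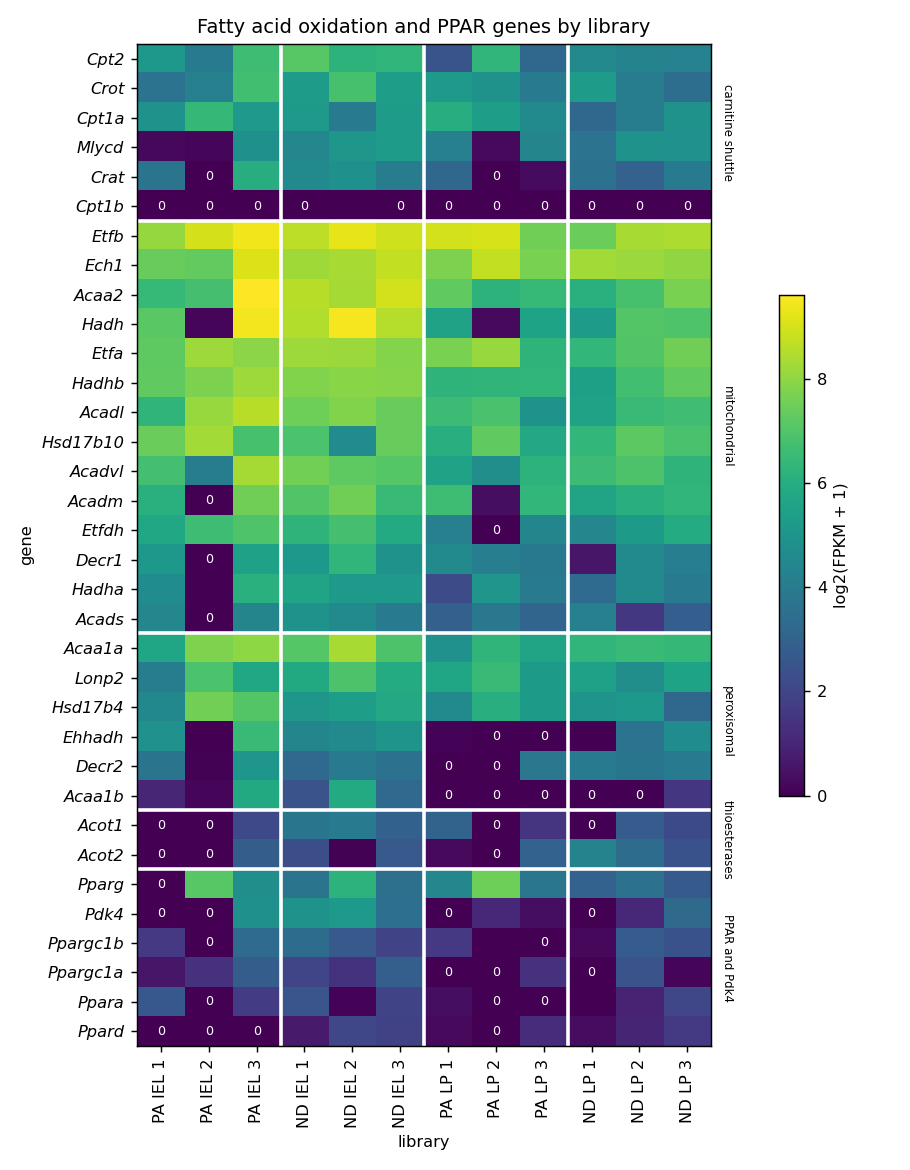
Level of the 34 genes in each of the 12 libraries, as log2(FPKM + 1), with genes grouped by role and ordered by their mean within a role; a white 0 marks a value listed at 0. Etfb, Ech1 and Acaa2 were the genes with the highest means, Cpt1b was listed at 0 in 11 libraries, and the columns PA IEL 2 and PA LP 2 hold the most values of 0.

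The highest levels belonged to mitochondrial enzymes. Etfb and Etfa encode the 2 subunits of the electron transfer flavoprotein, which collects electrons from the acyl-CoA dehydrogenases. The FPKM of Etfb was 274, 510.5 and 678 in PA IEL, 404, 614 and 489.7 in ND IEL, 498, 519 and 185 in PA LP, with 177, 328 and 345 in ND LP. Etfa followed at 150.3, 298 and 248 in PA IEL, 295, 287 and 229 in ND IEL, 204, 281 and 75.3 in PA LP, with 80.9, 127 and 184 in ND LP. Neither gene was at 0 in any library, and in ND the 3 IEL libraries lay above the 3 LP libraries for both. Etfb shares 617 of its 893 exon bases with Gm45233 on the same strand, so reads of these genes could not be separated by the library type. Ech1, a dienoyl-CoA isomerase that handles unsaturated chains, stood at 164, 159 and 559 in PA IEL, 301, 326 and 419.9 in ND IEL, 211, 423 and 203 in PA LP, with 307, 291 and 257 in ND LP. Its range in IEL contained its whole range in LP, with an IEL minus LP difference of 0.09 ± 0.37 (SE), the smallest among the 14 mitochondrial genes.

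The comparison of the layers asked where along the gut wall the sorted cells carried more of these transcripts. On the log2(FPKM + 1) scale, which understates differences of low genes, 31 of the 33 genes tested were higher in IEL than in LP over both diets, against 46.6% of all 12502 genes tested (53.4% were lower), and their median difference was 0.85 against -0.08 over all genes. No member passed an adjusted p under 0.05 (limma, Benjamini-Hochberg over all genes; 0.88% of all genes passed, 0.464% as higher and 0.416% as lower), and the smallest adjusted p from limma was 0.127, for Hadhb. At an unadjusted p under 0.05, 9 members were higher in IEL and 0 lower, against 6.1% and 7.34% of all genes. The 9 were Hadhb, Etfdh, Acadl and Acaa2 of the mitochondrial enzymes, Acaa1a, Acaa1b and Ehhadh of the peroxisomal enzymes, and Cpt2 and Pdk4. Genes below 0 were Mlycd and Acot2. By role, 4 of 5 carnitine shuttle genes, 14 of 14 mitochondrial, 6 of 6 peroxisomal, 1 of 2 thioesterase and 6 of 6 regulator genes had a positive difference, with medians of 0.88, 0.79, 1.16, -0.17 and 0.96, though Ppard and Pparg, both within 0.05 of 0, changed sign with a pseudocount of 0.1.

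These counts moved with the libraries that stood apart. Without PA IEL replicate 2 and PA LP replicate 2, limma called 4 members higher in IEL and 0 lower, against 2.95% and 3.66% of all genes, and their median difference was 1.18 against -0.02. The 4 were Cpt2 (2.61 ± 0.44 SE, adjusted p = 0.00555 from limma), Hadh (2.57 ± 0.50 SE, 0.0111), Ehhadh (3.75 ± 0.88 SE, 0.0271) and Hadhb (1.41 ± 0.37 SE, 0.0439). All IEL libraries then lay above all LP libraries for 5 members (Cpt2, Decr1, Hadh, Hadha and Hadhb) and below for 0, against 2.96% and 3.46% of all genes. Leaving out PA IEL replicate 2 alone called Ehhadh (adjusted p = 0.0486 from limma).

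**Figure D2:**
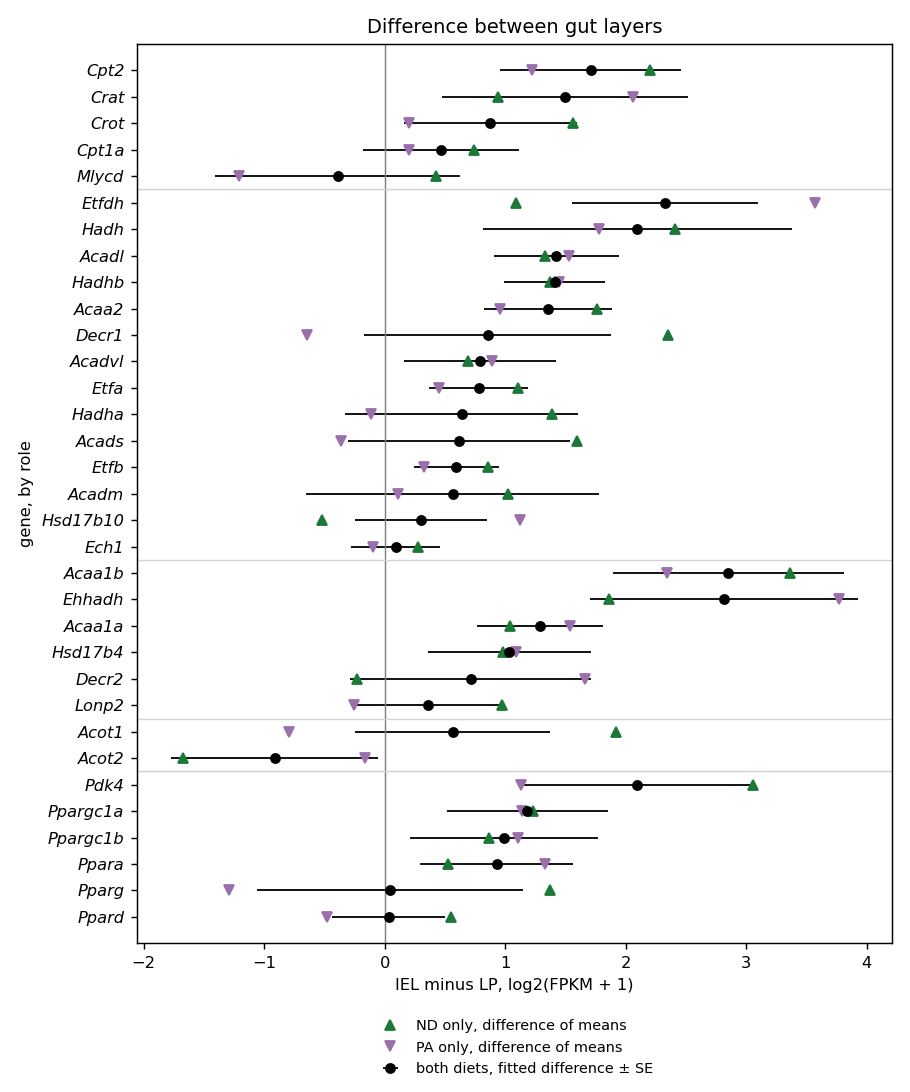
IEL minus LP difference in log2(FPKM + 1) for the 33 genes tested, grouped by role; black points are the fitted difference over both diets with its SE, upward triangles the difference of group means in ND and downward triangles in PA. Of the black points, 31 lie right of 0, and the triangles lie on opposite sides of 0 for 11 genes, Decr1, Acot1 and Pparg among them.

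Epithelial transcripts moved with the layer too. Of 16 epithelial markers, 15 were higher in IEL, 6 of them at an adjusted p under 0.05 (limma; 2 without ND IEL replicate 2 or ND LP replicate 2 to 9 without PA IEL replicate 2 when 1 library was left out), with a median difference of 3.27. Their summed share of all FPKM was 0.781%, 0.178% and 3.189% in PA IEL, 1.833%, 4.845% and 1.995% in ND IEL, 0.17%, 0.139% and 0.04% in PA LP, with 0.276%, 0.323% and 0.666% in ND LP. Epcam, a defining epithelial adhesion molecule, had an FPKM of 463, 0.196 and 742 in PA IEL, 849.9, 1133 and 686 in ND IEL, 151, 80.7 and 41.9 in PA LP, with 53.3, 134 and 379.6 in ND LP, and was at 0 in no library. PA IEL replicate 3 had the highest summed level of the fatty acid oxidation genes and the highest epithelial sum after ND IEL replicate 2. PA IEL replicate 2 had the lowest epithelial share in IEL and a sum of 2766.0 for the fatty acid oxidation genes. Its epithelial markers were uneven, with Epcam at 0.196 but Krt8 at 462 and Alpi at 272. The part of epithelial RNA in the layer difference was not tested.

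**Figure D3:**
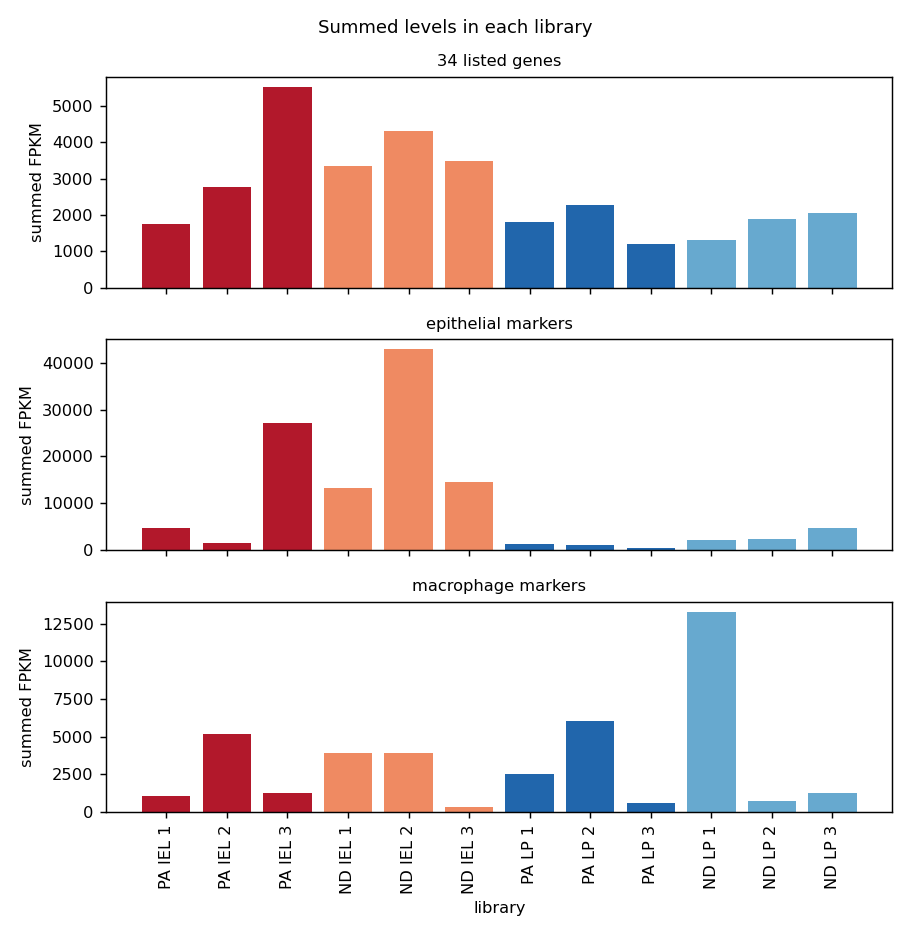
Summed FPKM in each of the 12 libraries (bars) of the 34 listed genes, of 16 epithelial markers and of 9 macrophage markers, from top to bottom. The listed genes range from 1195.8 in PA LP 3 to 5525.4 in PA IEL 3, and the epithelial sums of all 6 LP libraries lie below that of every ND IEL library.

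Hadhb was the 1 member whose 6 IEL libraries all lay above its 6 LP libraries, against 0.632% of all genes, and no member had the reverse order (0.608%). It encodes the beta subunit of the mitochondrial trifunctional protein, the thiolase of the long-chain cycle. Its FPKM was 154, 211 and 296 in PA IEL, 221, 241 and 231 in ND IEL, 75.6, 77.5 and 78.6 in PA LP, with 43.5, 104 and 154 in ND LP. The lowest IEL library, PA IEL replicate 1, was at 154.23 and the highest LP library, ND LP replicate 3, at 154.09, so the margin was thin. The difference was 1.41 ± 0.42 (SE, exact permutation within diets, two-sided p = 0.005, the smallest that 400 splits allow), and it was 1.16 to 1.61 when any 1 library was left out. This unadjusted p follows from the full separation for which Hadhb was picked, so it adds no support. Acaa1b had the same p of 0.005 in this permutation test.

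Hadha encodes the alpha subunit of the same complex and starts head to head with Hadhb on chromosome 5, Hadha on the minus strand (GENCODE gene span 30118304 to 30155162) and Hadhb on the plus strand (30155248 to 30184593). The whole gap between both annotated starts, chr5:30155163-30155247 of GRCm38.p6, plus strand, is shown because a pair of subunits with unlike levels shares it. Capitals mark matches to the GC box GGGCGG, searched on both strands.
Hadha-Hadhb gap: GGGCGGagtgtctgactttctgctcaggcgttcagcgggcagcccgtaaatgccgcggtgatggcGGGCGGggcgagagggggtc
Hadha stood at 24.3, 0.02 and 67.4 (PA) and 48.5, 36.3 and 35.9 (ND) FPKM in IEL and 3.54, 31.7 and 14.0 (PA) and 9.20, 23.5 and 14.0 (ND) in LP. It was below Hadhb in all 12 libraries, and at 0.02 in PA IEL replicate 2 where Hadhb was at 211. Its IEL libraries lay above its LP libraries in ND but not in PA, with a difference over both diets of 0.64 ± 0.97 (SE, adjusted p = 0.863, limma). Hadha shares 75 of 4017 exon bases with Garem2 on the opposite strand, and the kit does not mark strand.

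Etfdh encodes the oxidoreductase that hands the flavoprotein's electrons to ubiquinone. Its FPKM was 52.7, 97.2 and 124 in PA IEL, 75.2, 109 and 57.7 in ND IEL, 17.3, 0 and 20.5 in PA LP, with 21.2, 36.9 and 60.0 in ND LP. Every PA IEL library lay above every PA LP library, and in ND the layers overlapped at 1 value, ND LP replicate 3. The layer difference was 2.33 ± 0.77 (SE, adjusted p = 0.175, limma) and 1.61 without PA LP replicate 2, the library at 0.

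The acyl-CoA dehydrogenases open the cycle, each for a chain length. Acadl, for long chains, was at 76.9, 277 and 382 in PA IEL, 178, 219 and 167 in ND IEL, 95.3, 115 and 30.0 in PA LP, with 46.0, 87.5 and 99.7 in ND LP. PA IEL replicate 1 fell inside the LP range and the other 5 IEL libraries lay above it, with a difference of 1.43 ± 0.51 (SE). Acaa2, the thiolase that closes the cycle, was at 85.2, 109 and 785 in PA IEL, 388, 318 and 498 in ND IEL, 154, 74.2 and 86.5 in PA LP, with 68.3, 112 and 204 in ND LP. Both PA IEL replicates 1 and 2 lay inside its LP range, and the difference was 1.36 ± 0.53 (SE). Hadh, the hydroxyacyl-CoA dehydrogenase of the matrix, was at 142, 0.096 and 690.5 in PA IEL, 363, 724 and 369 in ND IEL, 46.0, 0.181 and 46.7 in PA LP, with 37.9, 132 and 126 in ND LP. It was at 0.096 in PA IEL replicate 2 and 0.181 in PA LP replicate 2, and without those libraries every IEL value lay above every LP value.

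Acadvl, for very long chains, was at 107, 16.1 and 318 in PA IEL, 187, 149 and 135 in ND IEL, 45.6, 25.7 and 73.0 in PA LP, with 95.6, 120.1 and 76.2 in ND LP. Its lowest values in each layer were those of PA libraries, and its IEL minus LP difference was 0.79 ± 0.63 (SE). Acadvl shares 976 of 2168 exon bases with Dvl2 on the opposite strand, so reads of both could not be told apart without strand. The remaining mitochondrial genes, Acadm, Acads, Decr1 and Hsd17b10, ranged from 0 to 186 FPKM in IEL libraries, except Hsd17b10 with up to 312, and from 0.278 to 154 in LP libraries.

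In the carnitine shuttle, Cpt1a and Cpt2 act in turn. Cpt1a makes the carnitine ester at the outer membrane, the step that limits entry, and was at 30.0, 83.0 and 34.8 in PA IEL, 35.3, 14.4 and 38.3 in ND IEL, 62.5, 39.5 and 22.8 in PA LP, with 8.17, 16.1 and 29.3 in ND LP. Its layers overlapped in both diets, with a difference of 0.47 ± 0.65 (SE). Cpt2 reverses the reaction at the inner membrane, and was at 33.7, 14.5 and 98.8 in PA IEL, 137, 74.1 and 80.0 in ND IEL, 4.69, 79.3 and 8.32 in PA LP, with 21.9, 18.6 and 18.3 in ND LP. In ND every IEL library lay above every LP library, and in PA the value of PA LP replicate 2 lay among the IEL values. The difference of Cpt2 was 1.71 ± 0.75 (SE, adjusted p = 0.337, limma), and 2.29 without PA LP replicate 2. Cpt1b, the muscle form, was listed at 0 in 11 libraries and at 0.005 in ND IEL replicate 2, and it was not tested. Its exons share 2744 of 2895 bases with Gm44502 on the same strand, so reads of both could not be told apart. Crot, the octanoyltransferase of peroxisomes, ranged from 11.6 to 111 FPKM in IEL and from 10.2 to 37.8 in LP, and Crat, the acetyltransferase, from 0 to 62.8 and from 0 to 15.1.

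Among the peroxisomal enzymes, Acaa1a and Acaa1b are near-identical thiolases, with 96.5% of 1275 bases of their reading frames alike, so reads may have been split between them. Acaa1a was at 50.7, 214 and 249 in PA IEL, 133, 324 and 122 in ND IEL, 28.3, 77.1 and 48.5 in PA LP, with 80.1, 89.5 and 83.5 in ND LP, and Acaa1b, much lower, at 1.05, 0.1 and 57.1 in PA IEL, 4.45, 57.3 and 8.71 in ND IEL, 0 in all 3 libraries of PA LP, with 0, 0 and 1.84 in ND LP. Acaa1b was listed at 0 in 5 of 6 LP libraries and above 0 in all 6 IEL libraries, although PA IEL replicates 1 and 2 were at only 1.05 and 0.1, and the lowest of these is below the 3 reads (0.15 FPKM there) taken as the floor. The groups did not overlap within either diet. The layer difference was 1.29 ± 0.52 (SE) for Acaa1a and 2.85 ± 0.96 (SE) for Acaa1b (adjusted p = 0.286 and 0.181, limma).

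The 100 bases before the RefSeq start of these paralogs on chromosome 9 of GRCm38.p6 are shown since the coding parts are alike while the levels are not. That of Acaa1a is chr9:119341194-119341293, plus strand, and lies inside an intron of a longer annotated transcript. That of Acaa1b is chr9:119157094-119157193, minus strand, directly before its first exon. Capitals mark the GC box, present in the first and not in these letters of the second.
Acaa1a: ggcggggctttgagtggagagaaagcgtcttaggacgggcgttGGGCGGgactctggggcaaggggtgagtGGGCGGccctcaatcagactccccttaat
Acaa1b: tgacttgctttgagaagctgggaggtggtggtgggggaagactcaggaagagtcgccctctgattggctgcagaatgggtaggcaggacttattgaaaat
A GC box lay within the RefSeq windows of 250 bases before to 50 after the start for 20 of the 28 members with an entry (71.4%) and 38.2% of 27025 genes. The 27025 genes, here and in the hexamer search below, were not limited to genes expressed in these libraries. The shares are therefore not matched for expression.

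Ehhadh, the bifunctional enzyme of the inducible peroxisomal cycle, was at 28.2, 0.026 and 87.8 in PA IEL, 20.5, 23.2 and 30.4 in ND IEL, 0.056, 0 and 0 in PA LP, with 0.026, 11.8 and 24.8 in ND LP. It was at or near 0 in all 3 PA LP libraries, in ND LP replicate 1 and in PA IEL replicate 2, and at 11.8 to 87.8 in the other 7. Its layer difference was 2.81 ± 1.11 (SE, adjusted p = 0.276, limma). Hsd17b4, the bifunctional enzyme for branched chains, Lonp2, the peroxisomal Lon protease, and Decr2, a reductase of unsaturated chains, had overlapping layers over all 12 libraries, with differences of 1.04, 0.36 and 0.71.

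The layers were also compared within each diet. In ND, 18 of the 33 members had all IEL libraries above all LP libraries and 0 the reverse, against 9.95% and 9.34% of all genes. In PA, 3 members did (Hadhb, Etfdh and Acaa1b) and 0 the reverse, against 4.06% and 4.51% of all genes. Leaving out PA IEL replicate 2 and PA LP replicate 2 made this 15 of 33 and 1 (Ppard) the reverse, against 19.6% and 20.1%, with 2 libraries per group. Whether the layer difference depended on the diet was tested as the interaction below, and no member passed.

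**Figure D4:**
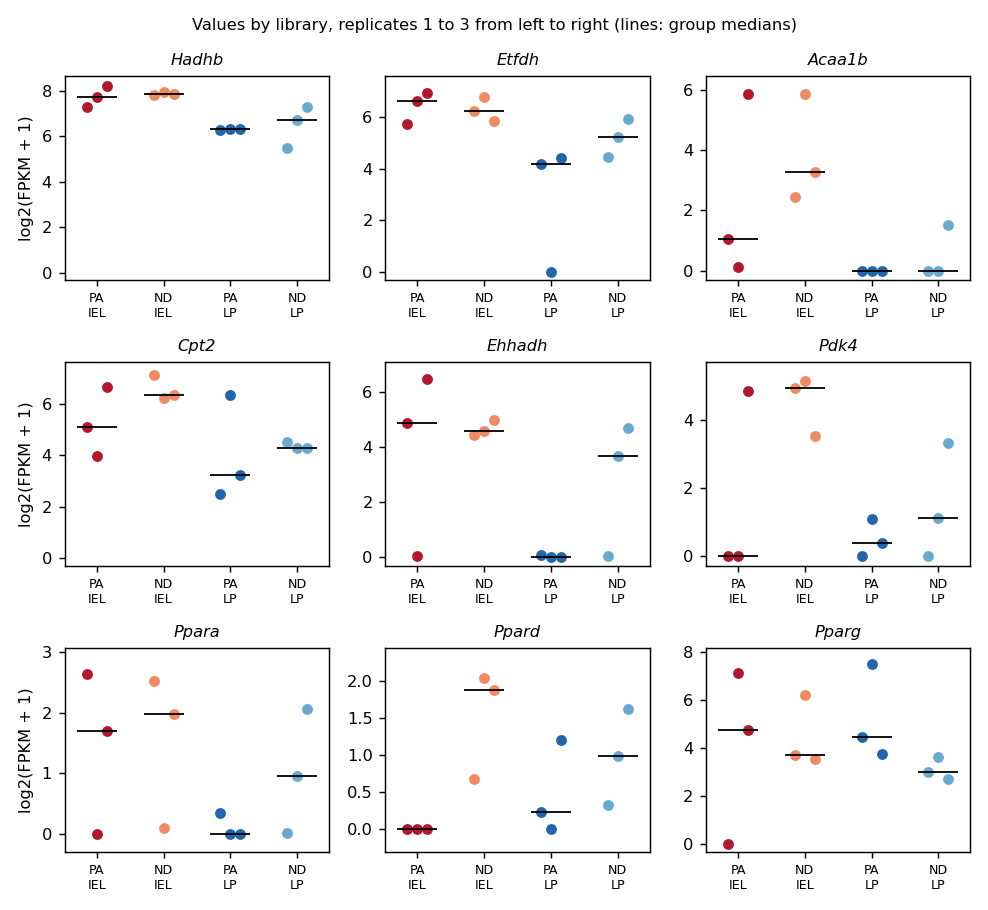
Log2(FPKM + 1) of 9 genes in the 3 libraries of each group (points, replicates 1 to 3 from left to right; lines are group medians). Hadhb separates IEL from LP completely, Ppard is at 0 in all 3 PA IEL libraries, and Pparg has its highest value in replicate 2 of every group.

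The diet comparison asked whether cells of PA milk mice differed from those of ND mice. In IEL, 28 of the 33 members were lower and 5 higher in PA, with a median of -0.87 (Acadl and Etfdh of the 5 turned negative under scaling on leukocyte genes) against -0.30 over all genes, of which 60.5% were lower and 38.0% higher. No member was called (0.0% of all genes; adjusted p under 0.05, limma), and 4 were lower at an unadjusted p under 0.05 and 0 higher, against 2.82% and 0.752% of all genes. These were Mlycd, Acot1, Ppard and Pdk4. Without PA IEL replicate 2 and PA LP replicate 2 the median was -0.20 against 0.00 over all genes, with 10 members higher and 23 lower, and leaving out PA IEL replicate 2 alone also gave -0.20.

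Markers of other cells moved with the diet as well. Of the 16 epithelial markers, 14 were lower and 2 higher in PA IEL than in ND IEL, with a median of -2.15 that was -0.56 (12 lower) without PA IEL replicate 2 and -3.89 without PA IEL replicate 3. None passed an adjusted p under 0.05 (limma), and their summed share of all FPKM ran from 0.178% to 3.189% in PA IEL and from 1.833% to 4.845% in ND IEL. The 7 T cell markers were lower in PA IEL in 6, with a median of -2.47. The 12 ILC3 markers went the other way, 8 higher and 4 lower with a median of 0.66. That median was -0.30 without ND IEL replicate 2 and 1.85 (11 higher) without PA IEL replicate 2. The part of these shifts in the diet difference of the members was not tested.

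Mlycd encodes malonyl-CoA decarboxylase, which removes the inhibitor of Cpt1a. Its FPKM was 0.162, 0.115 and 27.5 in PA IEL, 20.8, 32.9 and 37.4 in ND IEL, 17.2, 0.193 and 20.1 in PA LP, with 11.8, 30.1 and 28.3 in ND LP. PA IEL replicates 1 and 2 were at the floor of 3 reads, PA IEL replicate 3 lay within the ND IEL range, and PA LP replicate 2 was near 0 as well. The PA minus ND difference in IEL was -3.19 ± 1.44 (SE, adjusted p = 0.947, limma). Acot1 encodes a cytosolic acyl-CoA thioesterase, and its FPKM was 0, 0 and 3.39 in PA IEL, 12.3, 14.4 and 7.02 in ND IEL, 7.26, 0 and 1.76 in PA LP, with 0, 5.90 and 3.42 in ND LP. All PA IEL libraries lay below all ND IEL libraries, with 2 of them listed at 0, and the difference was -2.85 ± 1.15 (SE, exact two-sided permutation p = 0.1, the smallest that 3 against 3 allow). Acot1 and its mitochondrial paralog Acot2 share 95.5% of 1239 aligned bases, and Acot2 was between 0 and 6.11 FPKM in IEL with a difference of -0.75 ± 1.21 (SE). Of members not overlapping between PA and ND in IEL there were 2, both lower in PA (Acot1 and Ppard), against 5.22% of all genes lower and 2.97% higher. Without PA IEL replicate 2 they were 3 lower (Acot1, Lonp2 and Ppard) and 0 higher, against 7.34% and 9.92%, with 2 PA libraries.

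Pdk4, a kinase that shuts off pyruvate dehydrogenase and a well-known PPAR target, was at 0, 0 and 27.7 in PA IEL, 29.6, 34.6 and 10.4 in ND IEL, 0, 1.12 and 0.282 in PA LP, with 0, 1.17 and 8.93 in ND LP. It was listed at 0 in PA IEL replicates 1 and 2, while PA IEL replicate 3 lay inside the ND IEL range. The diet difference in IEL was -2.92 ± 1.36 (SE, adjusted p = 0.947, limma), and it ranged from -4.53 to -2.11 when any 1 library was left out. Between the layers the difference was 2.095 ± 0.96 (SE), and the 3 ND IEL libraries lay above the 3 ND LP libraries.

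In LP, 24 members were lower and 9 higher in PA (12 higher under scaling on leukocyte genes), with a median of -0.41 against -0.36 over all genes, of which 62.2% were lower and 37.4% higher. Of the 16 epithelial markers, 16 were lower in PA, 4 of them without overlap, with a median of -2.07, and their summed share was 0.04% to 0.17% in PA LP against 0.276% to 0.666% in ND LP. Of the 12 ILC3 markers, 11 were lower, with a median of -1.72 (-0.96 without ND LP replicate 2), and their summed share was 0.021% to 0.049% in PA LP against 0.083% to 0.747% in ND LP. Most of the ND LP sums came from Id2 in replicates 1 and 3 (539 and 546 FPKM) and from Il22 in replicate 2 (4339 FPKM). For both lists the PA and ND shares did not overlap, none of these markers passed an adjusted p under 0.05 (limma), and their part in the members' values was not tested. T cell markers were lower in 6 of 7 and B cell markers in 4 of 4, with medians of -2.07 (-0.46 without PA LP replicate 2) and -4.08 (-2.66 without ND LP replicate 1). No member was called (0.0% of all genes, limma), and 1 was lower at an unadjusted p under 0.05 (Etfdh) and 0 higher, against 4.04% and 0.664% of all genes. Etfdh differed by -2.34 ± 1.09 (SE, adjusted p = 0.979, limma), and by -0.91 without PA LP replicate 2. Members that did not overlap were Acadvl (-1.10 ± 0.89 SE), Etfdh and Acaa1a (-0.82 ± 0.74 SE), lower in PA, against 6.6% of all genes, and Pparg, higher in PA, against 2.97% (exact two-sided permutation p = 0.1 for each, the smallest possible). Without PA LP replicate 2 these were 6 lower (Acaa1a, Acadvl, Cpt2, Ech1, Etfdh and Hsd17b10, against 10.3%) and 2 higher (Acadm and Pparg, against 11.7%), with 2 PA libraries.

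**Figure D5:**
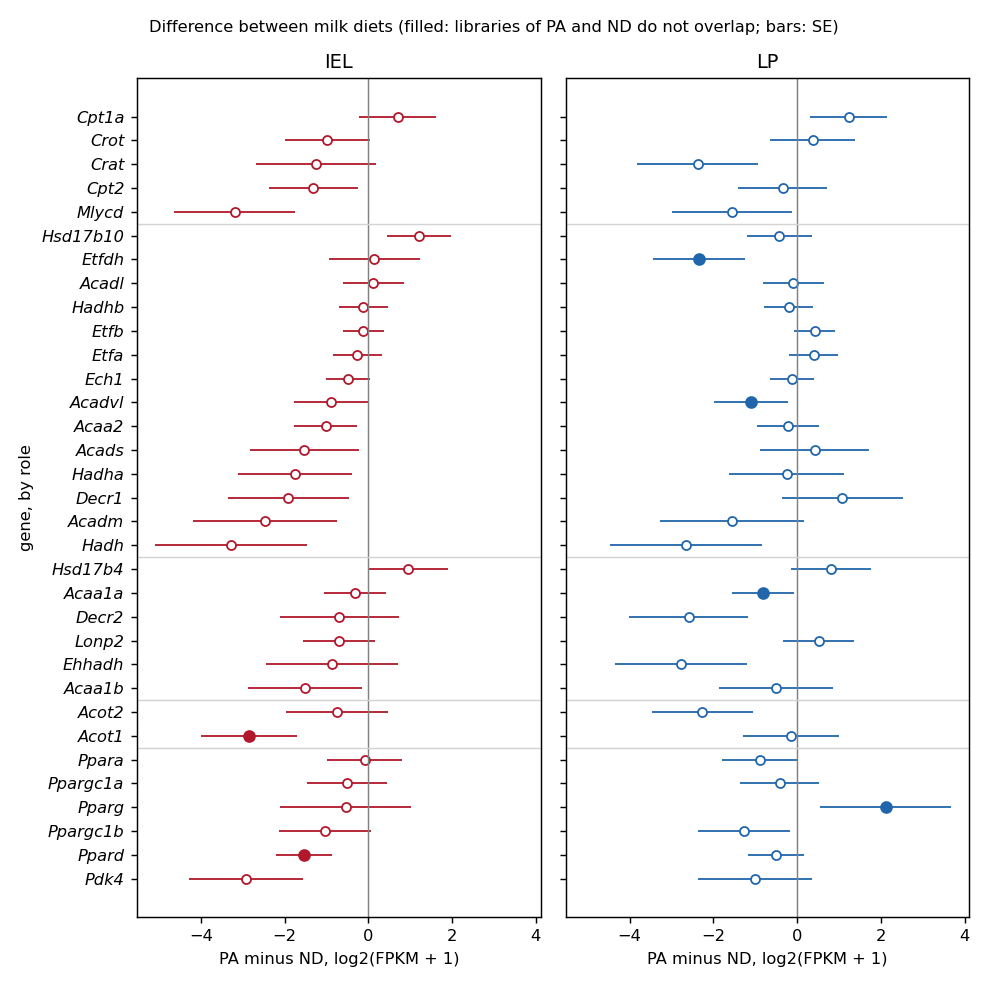
PA minus ND difference in log2(FPKM + 1) with its SE for the 33 genes tested, in IEL (left) and LP (right), grouped by role; filled points are genes whose PA and ND libraries do not overlap. Filled points are Acot1 and Ppard in IEL, and Acadvl, Etfdh, Acaa1a and Pparg in LP, where Pparg alone of these lies right of 0.

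The diet difference was set against itself between the layers as LP minus IEL. The median over members was 0.54, against -0.03 over all genes, with 20 members above and 13 below 0 (49.2% of all genes were above). No member was called, none had an unadjusted p under 0.05 (2.34% of all genes had), and the median was 0.03 without PA IEL replicate 2.

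The 3 receptors lay at different levels. Ppara, the receptor of fasting liver and of enterocytes, was at 5.24, 0 and 2.25 in PA IEL, 4.79, 0.067 and 2.96 in ND IEL, 0.269, 0 and 0 in PA LP, with 0.01, 0.935 and 3.17 in ND LP. It was at or below 5.24 FPKM throughout and at 0 in PA IEL replicate 2 and PA LP replicates 2 and 3, with a layer difference of 0.93 ± 0.63 (SE). Ppard, the broadly expressed receptor, was at 0 in all 3 libraries of PA IEL, 0.599, 3.13 and 2.69 in ND IEL, 0.181, 0 and 1.31 in PA LP, with 0.263, 0.996 and 2.08 in ND LP. All 3 PA IEL libraries were listed at 0 and all 3 ND IEL libraries lay above, and the diet difference in IEL was -1.54 ± 0.66 (SE, adjusted p = 0.947, limma).

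Pparg, known from adipocytes and macrophages, had the highest level of the 3, at 0, 138 and 25.7 in PA IEL, 11.99, 73.5 and 10.8 in ND IEL, 21.1, 177 and 12.6 in PA LP, with 7.08, 11.4 and 5.61 in ND LP. Replicate 2 was the highest library of Pparg in each of the 4 groups, those of ND included, and PA IEL replicate 1 was listed at 0. In LP every PA library lay above every ND library, with a difference of 2.12 ± 1.56 (SE, adjusted p = 0.979, limma) that was 0.99 without PA LP replicate 2. The summed FPKM of 9 macrophage markers was 1078.1, 5176.3 and 1268.2 in PA IEL, 3950.9, 3947.1 and 318.2 in ND IEL, 2526.2, 6052.7 and 584.6 in PA LP, with 13284.0, 715.6 and 1272.5 in ND LP. Within each PA group the highest of these sums fell in the same library as the highest Pparg value. ND LP replicate 1 had the highest sum of all, 10375.5 of it from Lyz2 alone, and had Pparg at 7.08. Of these markers, Cd68 was above 0 in all 12 libraries, but 3 of the 9 were listed at 0 in at least 1 library, Itgam in 6. Csf1r was at 0.025 FPKM in PA LP replicate 2, the library with the highest Pparg value. The part of the macrophage markers in the Pparg values was not tested.

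Coactivators were low. Ppargc1a, which couples PPARs to mitochondrial biogenesis, was at 0.49, 1.59 and 6.14 in PA IEL, 2.98, 1.65 and 6.57 in ND IEL, 0, 0 and 1.60 in PA LP, with 0, 4.55 and 0.108 in ND LP, and its layer difference was 1.18 ± 0.67 (SE). Ppargc1b, its relative, was at 1.99, 0 and 9.34 in PA IEL, 9.56, 5.43 and 2.90 in ND IEL, 1.99, 0.026 and 0 in PA LP, with 0.167, 5.95 and 4.30 in ND LP. It differed by 0.99 ± 0.78 (SE) between the layers. Each was above 1 FPKM in all 3 ND IEL libraries, in 2 of the 3 PA IEL libraries and in at most 2 of the 3 libraries of any LP group.

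The hexamer AGGTCA, the unit that nuclear receptors recognise, was searched on both strands of the RefSeq windows. It lay in 4 of the 28 members with an entry (Acadm, Acadvl, Cpt1a and Pparg, 14.3%) and in 18.1% of 27025 genes. Its direct repeat with 1 base between the copies lay in 0 members and in 13 genes (0.0481%). With so few matches, 0 among 28 members carries no information. Only these exact letters were searched, so variant sites and sites outside the windows were not covered. The matches near 3 enzymes are shown with the letters around them (capitals mark the hexamer or its reverse complement), each in the gene's direction on GRCm38.p6. They lie at chr3:153944870-153944893 (minus strand, Acadm), chr11:70015493-70015532 (minus strand, Acadvl) and chr19:3323190-3323229 (plus strand, Cpt1a). The Cpt1a stretch precedes the RefSeq start but lies inside the GENCODE gene span, which begins at 3322334, and overlaps no annotated exon.
Acadm: gTGACCTtcgggctccggtgacac
Acadvl: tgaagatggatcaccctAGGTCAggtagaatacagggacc
Cpt1a: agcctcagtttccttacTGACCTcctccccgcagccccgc
Of these 3 genes, Acadvl was lower in PA LP without overlap, Cpt1a had positive diet differences of 0.70 ± 0.91 (SE) in IEL and 1.23 ± 0.91 (SE) in LP (adjusted p = 0.964 and 0.979, limma; the first fell to 0.25 when PA IEL replicate 2 was left out and to 0.26 when ND IEL replicate 2 was, the second was 0.79 without ND LP replicate 1), and Acadm was at 0 in PA IEL replicate 2 and at 0.278 in PA LP replicate 2.

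Other genes of the same pathways, 66 tested on lists of transport, mitochondrial, peroxisomal and ketone body genes, PPAR partners and PPAR targets, were compared in the same fit. Of the 66, 42 were higher in IEL and 24 lower, with a median of 0.57, and 13 were higher and 3 lower at an unadjusted p under 0.05, against the 6.1% and 7.34% of all genes given above. The other peroxisomal genes were higher in 16 of 18, with a median of 1.18. Scp2, a sterol carrier thiolase and the highest of its list, was at 139, 123 and 518 in PA IEL, 266, 685 and 305 in ND IEL, 64.2, 55.1 and 86.7 in PA LP, with 139.5, 117 and 115 in ND LP. It differed by 1.61 ± 0.45 (SE). Also at an unadjusted p under 0.05 were Phyh (1.82), Cat (1.05), Acox2 (1.68) and Eci3 (3.77), and Eci3 was listed at 0 in 7 libraries.

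Further mitochondrial genes were higher in IEL in 8 of 13, with Acad11 at 2.89, Pcca, of propionyl-CoA carboxylase, at 2.78 and Echs1, the short-chain hydratase and highest of its list, at 1.77 (unadjusted p under 0.05, limma). In the diet comparison in LP, Acad9, an assembly factor of complex I, and Echs1 had negative PA minus ND differences of -3.16 ± 1.32 (SE) and -2.59 ± 1.14 (SE), neither of which passed (adjusted p = 0.979 for each, limma). That of Echs1 was -0.87 without PA LP replicate 2, where it was at 0.284 FPKM, and its layer difference was 0.91 without the same library. The diet difference of Acad9 in LP minus that in IEL was also under an unadjusted p of 0.05 (-4.53 ± 1.86 SE, adjusted p = 0.9999 from limma). Slc25a20, the carnitine-acylcarnitine carrier and highest of the transport list, was at 21.0, 0 and 55.8 in PA IEL, 84.5, 120.2 and 65.6 in ND IEL, 39.4, 110.3 and 37.1 in PA LP, with 30.0, 38.8 and 39.8 in ND LP. All 3 PA IEL libraries lay below all 3 ND IEL libraries, as for 5.22% of all genes, with a difference of -3.04 ± 1.20 (SE, adjusted p = 0.947, limma) that was -1.32 without PA IEL replicate 2, the library at 0. In LP the difference was 0.59 ± 1.20 (SE). Of the ketone body genes, 3 of 4 were higher in IEL.

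Of the PPAR partners, 8 of 17 were higher in IEL with a median of -0.04, and the corepressor Ncor1, the highest, differed by 0.01 ± 0.52 (SE). Rxra, the dimer partner of PPARs, had a negative PA minus ND difference in IEL that did not pass (-2.69 ± 1.26 SE, unadjusted p = 0.0498 and adjusted p = 0.947, limma). Nrf1 had an unadjusted p under 0.05 for the diet difference in LP minus that in IEL (-4.59 ± 1.96 SE, adjusted p = 0.9999, limma). PPAR targets went both ways, 6 of 12 each. Fabp1, the enterocyte and liver fatty acid binding protein, was the highest at 670.3, 898 and 12094 in PA IEL, 4641, 6532 and 5268 in ND IEL, 109.7, 231 and 1.29 in PA LP, with 2.03, 2139 and 149 in ND LP. It had a layer difference of 5.71 ± 1.33 (SE, adjusted p = 0.0547, limma). It passed without PA LP replicate 2 (adjusted p = 0.0243, limma) and without ND LP replicate 2 (0.019). Creb3l3 (3.92), Vnn1 (3.35) and Cidec (3.19), all known from enterocytes or liver, were also higher in IEL at an unadjusted p under 0.05 (limma), and Cidec differed by 2.06 without PA IEL replicate 3. In the diet comparison in IEL, Vnn1 and Eci3 differed by -3.69 ± 1.27 (SE) and -3.57 ± 1.37 (SE, adjusted p = 0.947 for each, limma). Both were listed at 0 in PA IEL replicates 1 and 2, and in PA IEL replicate 3 they stood at 23.6 and 65.4 FPKM, inside their ND IEL ranges of 10.3 to 144.6 and 34.2 to 65.8, so that the groups overlapped. Without PA IEL replicate 3 the difference of Eci3 was -5.59.

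Fabp4, the fatty acid binding protein of adipocytes, macrophages and endothelium, was the 1 pathway gene called with all 12 libraries. Its FPKM was 83.4, 221 and 82.0 in PA IEL, 30.5, 168 and 4.35 in ND IEL, 1281, 212 and 2337 in PA LP, with 397, 1638 and 842 in ND LP. Every LP library except PA LP replicate 2 lay above every IEL library, with an IEL minus LP difference of -3.82 ± 0.75 (SE, adjusted p = 0.0266, limma). The call was lost in 7 of the 12 fits that left out 1 library each (PA IEL replicate 1 or 3, ND IEL replicate 1, PA LP replicate 1 or 3, ND LP replicate 2 or 3), whose adjusted p ran up to 0.0789 (limma). Cd36, a fatty acid translocase, and Hilpda, a lipid droplet protein, were on the same side (-2.39 ± 0.81 and -2.77 ± 1.19, SE), Cd36 with an adjusted p of 0.0357 (limma) without PA LP replicate 2 and Hilpda at -1.71 without PA IEL replicate 2. The adipocyte markers Adipoq, Plin1, Lep, Cfd and Retn together summed to 0.0 FPKM in every library. All 5 smooth muscle markers were lower in IEL at an unadjusted p under 0.05 (limma), against 7.34% of all genes. Their median difference was -2.8, and none passed an adjusted p under 0.05. They summed to at most 3.5 FPKM in any IEL library, to 36.1, 0.1 and 606.2 in PA LP, and to 0.1, 427.3 and 2155.8 in ND LP. The part of such cells in these differences was not tested.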

How the data were processed

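The authors mapped reads of SMART-Seq v4 libraries, made from PCR-amplified cDNA, to mm10 with TopHat2 (2.1.1), Bowtie2 (2.2.8.0) and SAMtools (0.1.18), and deposited FPKM values from Cufflinks (2.2.1) for 23284 genes on a common scale. The submitters' processing notes also name Cuffdiff (2.2.1). The count table the authors deposited holds a score, counts divided by a size factor and rounded, and was used only to find each library's depth: 90.3% to 96.1% of low values lay within 0.05 of a whole number of reads. Reads were amplified without molecular identifiers, so depth and a floor of 3 reads cover counting error only. The kit does not mark strand.

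Groups came from the labels. The 12502 genes that reached an FPKM of 1 in 3 or more libraries entered 1 limma fit (3.58.1, R 4.3.3) of log2(FPKM + 1) over the 12 libraries with 4 group means, a mean-variance trend and Benjamini-Hochberg adjustment at 0.05. PA and ND were compared in IEL, in LP and between layers, and IEL with LP over both diets. Single genes also had exact two-sided permutation tests. Groups not overlapping means that every library of one lay above every library of the other. Tables were made with Python 3.11.15, numpy 2.4.6, pandas 2.3.3, scipy 1.17.1 and matplotlib 3.10.9.

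Values per library were given for PPARs, coactivators, Pdk4, Cpt1a, Cpt1b and Cpt2, for members not overlapping between diets or with an unadjusted p under 0.05 in any comparison, and for the 5 with the highest mean. The Hadha and Acot2 values were added because a paralog or partner is described. For other pathway lists, the highest gene of each and those with an unadjusted p under 0.05 were named, except some genes whose values are not reported here. The members and lists were chosen with earlier results of these data known. Same-numbered libraries did not deviate together: correlations of their deviations from the group means, across genes, were -0.03 to 0.06 between layers and -0.12 to 0.07 between diets, over 6 pairs each.

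Gene spans came from GENCODE vM21 (GRCm38, called mm10 by the authors) and promoter windows from RefSeq on GRCm38.p6, matched by symbol for 28 of 34 members. Alternatives were no filter, a pseudocount of 0.1, upper quartile scaling, scaling on 30 genes common to leukocytes, the replicate number or the diet and number as a block, the 6 libraries of a layer alone, leaving out each library, and, added after seeing the data, leaving out the 2 libraries with the fewest genes.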

Additional observations from a re-analysis of the deposited data

How the results depend on the processing

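The 20 results for single members kept their direction in all 380 refits, 4 of which passed an adjusted p under 0.05 (limma), all for the layer difference: Ehhadh without PA IEL replicate 2, and Cpt2, Hadhb and Ehhadh without the 2 libraries with the fewest genes. The 25 results for other pathway genes kept theirs in 475 refits. Both sets were picked in these same libraries by an unadjusted p under 0.05 (limma). For members, groups that did not overlap and Cpt1a were taken as well. Kept directions were therefore likely from the start and say little about robustness. The call of Fabp4 was lost in 10 of its 19 refits (adjusted p of 0.13 without a filter, 0.0511 with a pseudocount of 0.1 and 0.0878 with the diet and number as a block), and Eci3, Scp2 and Creb3l3 passed for the layer without PA IEL replicate 2 (0.0407, 0.0418 and 0.0156). The number of members called stayed at 0 for the diet in IEL, the diet in LP and their difference in every refit, and for the layer it was 0 to 1 when any 1 library was left out and 4 without the 2 libraries. The number of members higher in PA in IEL, 5, was 3 under scaling on genes common to leukocytes, 10 without the 2 libraries with the fewest genes, and 3 (without PA IEL replicate 3) to 11 (without PA IEL replicate 1) when any 1 library was left out. The cause of these shifts was not tested. Medians of the members ran from -1.75 to -0.20 for the diet in IEL, -0.75 to -0.19 in LP, 0.03 to 0.90 for the difference of the diet effect and 0.55 to 1.31 for the layer with 1 library left out, and the third was -0.09 without the 2 libraries. Scaling on leukocyte genes moved the median of all genes from -0.30 to -0.44 in IEL, from -0.36 to -0.24 in LP and from -0.03 to 0.24 for their difference, where the members' median became 0.94. Calls for the layer over all genes, 110 at first, were 30 without a filter, 58 with a pseudocount of 0.1, 826 without the 2 libraries, and 37 to 521 with 1 library left out (fewest without ND IEL replicate 2, most without PA LP replicate 2).

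With the replicate number as a block, the members' medians were -0.87, -0.41, 0.54 and 0.85 and 0 members were called, as without it; with the diet and number as a block shared by the layers, 0 were called for the layer, and calls over all genes fell to 29. With 3 libraries per group and 2 of 6 PA libraries sparse, differences within the spread between replicates, and any at the floor of 3 reads, could not be detected at this depth and number of libraries.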
